A study of Rattus norvegicus with 4 samples.

Results

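Long single-block transcripts of the NONCODE catalogue, a database of non-coding RNAs whose rat identifiers begin with NONRATT, were described in neonatal rat cardiomyocytes kept in normal or high glucose. A transcript was taken as a single block when its genomic span, from the listed start to the listed end, exceeded its length by at most 15 bases, which leaves no room for an intron. The other conditions were a listed length of at least 2000 nt in the 24 h normal glucose table and a mean of at least 1 FPKM (a read count corrected for transcript length and library total) over the 4 libraries. By name, length and span 647 transcripts qualified. The FPKM limit left out 155 of them and kept 492, out of 17934 transcripts listed in any library. The 492 made up 6.72% of the 7321 measured long non-coding RNA (lncRNA) transcripts, those with a mean of at least 1 FPKM and a length of at least 200 nt. All 492 were listed in each of the 4 libraries, and span and length were equal for 488 of them. Just inside the length limit was NONRATT011026.2 with 2000 nt, and just outside it NONRATT020039.2 with 1999 nt. Mean FPKM was 1.00258 for the lowest member, NONRATT024976.2, and 0.994959 for the first transcript left out, NONRATT001368.2. The span exceeded the length by 14 bases in the widest members, NONRATT020025.2 and NONRATT005019.2, and by 30 bases in the next transcript, NONRATT020537.2.

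LncRNAs are longer transcripts with no recognised protein product. Many are spliced like messenger RNAs, while others are transcribed as 1 uninterrupted block, among them nuclear RNAs that act where they are made. Catalogues built from assembled reads hold further single blocks of other kinds, such as extended 3' ends of protein-coding genes or pieces of introns, and total RNA libraries contain unspliced precursor RNA as well as mature RNA. No gene name or strand stands beside an identifier in the tables, so which of these kinds a given member belongs to was not analysed here. Excess glucose is used on cultured cardiomyocytes as a model of the oxidative stress and cell death of the diabetic heart.

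Primary cardiomyocytes had been isolated from newborn Sprague-Dawley rats, 1 to 2 days of age. The medium of all groups held taurine and creatine at 5 mM each and carnitine at 2 mM. The normal glucose groups received 5 mmol/l glucose with 28 mmol/l mannitol, a sugar alcohol that levels the osmolality, and the high glucose groups 33 mmol/l glucose. RNA was taken at 24 h or 48 h. Each combination of medium and time was 1 library, with no replicate, so differences between 2 libraries carry counting intervals only and no p-value. The labels do not say how many animals or cultures a library came from. The tables list lncRNA transcripts by identifier, so the labelled cell type could not be set against its defining markers. In such bulk RNA, fewer cells of a type and less RNA per cell cannot be told apart.

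Between 846946 and 1075428 reads were counted over all lncRNA transcripts of a library, out of totals of 11877895 to 15654067 recovered from the FPKM values. The members' median count was 246.5 in normal glucose and 316 in high glucose at 24 h, and 307 and 271.5 at 48 h. In each library 8 members had fewer than 10 reads. Fold differences are given with exact 95% Clopper-Pearson limits from the 2 counts, and shares with Wilson limits, which cover counting error only.

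Few members overlapped another listed transcript. Their median length, which the rule held at 2000 nt or more, was 2530 nt, with quartiles of 2253 and 2950 nt and a longest member of 7366 nt. No other listed transcript overlapped 431 members (87.6%), against 65.5% of all measured transcripts and 44.8% of the 239 spliced NONCODE transcripts of 2000 nt or more. The shorter single-block NONCODE transcripts were close to the members, with 84.7% (2383 of 2812), so the lack of overlap was not particular to the long blocks. A further 43 members overlapped 1 listed transcript and 18 overlapped 2 or more. Reads of overlapping transcripts cannot be told apart from the counts. The members lay on all 20 autosomes and the X chromosome, with the most on chromosome 1 (46 members, 5.22% of its measured transcripts) and the fewest on chromosome 12 (9 members, 3.90%). Their share of the measured transcripts of a chromosome was highest on chromosome 11 (18 members, 9.63%) and chromosome 13 (25 members, 9.62%).

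As a group these 492 transcripts took a similar share of the lncRNA reads in every library. Their share of the lncRNA counts at 24 h was 26.2% with normal (95% Wilson limits 26.1 and 26.3) and 26.8% with high glucose (26.8 and 26.9). The share at 48 h was 27.3% with normal (27.2 and 27.4) and 27.4% with high glucose (27.3 and 27.5). Whether the recovered totals count reads or fragments is not known, so a share of them can be compared between libraries but its level is uncertain. Counted against these totals, the share was 1.87% and 1.83% at 24 h and 1.98% and 1.74% at 48 h, in the same order of media. The high glucose library at 48 h was thus the lowest by this scale and the highest by the other. On the scale of FPKM, which corrects for length, the median over members of the mean level was 7.92 FPKM, with quartiles of 3.79 and 15.4. All measured transcripts had a median of 2.86 FPKM, the 2812 shorter single-block NONCODE transcripts 2.94 FPKM and the spliced ones of 2000 nt or more 5.84 FPKM. These class levels are descriptions, with no test. The 10 members with the most reads took between 17.9% and 18.3% of the members' counts in a library.

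**Figure D1:**
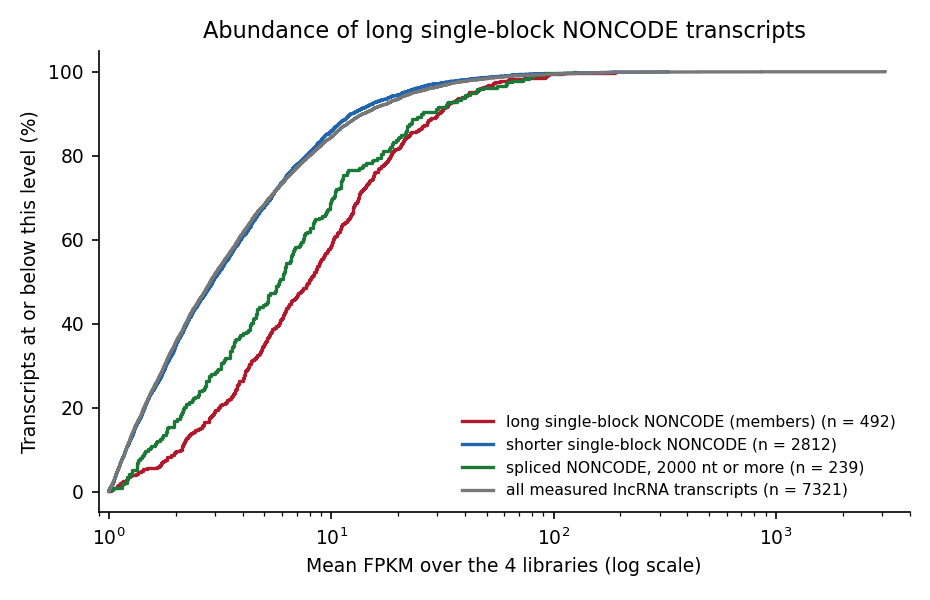
Cumulative share of transcripts (y axis, %) against the mean FPKM over the 4 libraries (x axis, log scale), 1 line a class. The line of the 492 long single-block transcripts lies to the right of the others over most of its course, with a median of 7.92 FPKM against 2.86 FPKM for all measured transcripts.

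The most abundant member was NONRATT024061.2, on chromosome 6 from 24181526 to 24184216 (2691 nt). It stood at 208.9 FPKM in normal glucose and 189 FPKM in high glucose at 24 h, and at 211 and 145 FPKM at 48 h. Its level was lowest in the high glucose library at 48 h, where it was 1.46-fold below normal glucose (95% counting interval 1.41 to 1.51). This interval does not cover the choice of scaling, and the same holds for the levels that follow. In that comparison the median log2 ratio over members was -0.18 with the recovered totals and 0.01 with TMM factors. NONRATT030152.2 (chromosome 9, 81190189 to 81194655, 4467 nt) followed with 133 and 115 FPKM at 24 h and 143 and 107 FPKM at 48 h, again lowest in high glucose at 48 h. For NONRATT005019.2 (chromosome 10, 97956962 to 97959199, 2224 nt) the values were 102 and 117 FPKM at 24 h and 123 and 97.9 FPKM at 48 h, higher in high glucose at the first time and lower at the second. The remaining 2 of the 5 most abundant members varied little between libraries. NONRATT024777.2 (chromosome 6, 4255699 to 4258142) ran from 91.5 to 97.2 FPKM and NONRATT003468.2 (chromosome 1, 221156368 to 221158798) from 88.1 to 99.4 FPKM. Overlap with other listed transcripts was absent for the first 4 of these and counted 2 transcripts for NONRATT003468.2. The longest member, NONRATT031072.2 (chromosome X, 74324613 to 74331978), was also among the abundant ones, with 53.3 and 59.5 FPKM in normal and high glucose at 24 h and 56.7 and 60.0 FPKM at 48 h. NONRATT001117.2 (chromosome 1, 177709339 to 177714800), the second longest with 5462 nt, was at 69.9 FPKM in both media at 24 h and at 79.1 and 75.3 FPKM at 48 h. Longer members stood higher, as a description: the median was 6.07 FPKM for the 237 members under 2500 nt and 14.4 FPKM for the 20 members of 4000 nt or more (Spearman's rho 0.225 over 492 members, which share the libraries).

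Most members held nearly the same level in all 4 libraries. Of the 467 members with a mean count of at least 50, 339 (72.6%) had a highest CPM (counts scaled by the recovered total) within 1.5 times the lowest, and 75 more were within 2 times. Of the 2867 measured transcripts that passed the same floor of 50, 55.4% were within 1.5 times. The floor did not match the 2 sets for depth. Without it, the median of the mean counts was 286 for members and 34 for all measured transcripts. Counting error widens the ratio at low counts, and whether members were steadier at equal depth was not tested. The steadiest members were NONRATT003084.2 (chromosome 1, 187781577 to 187783860), with 18.3, 18.7, 18.7 and 18.6 FPKM in normal glucose at 24 h, high glucose at 24 h, normal glucose at 48 h and high glucose at 48 h, and NONRATT019151.2 (chromosome 3, 9858715 to 9861656), with 15.2, 15.5, 15.6 and 15.7 FPKM in that order. Their highest library exceeded the lowest by factors of 1.02 and 1.03, within counting error. Between 2 and 4 times lay 19 members and between 4 and 8 times 8. The other 26 were 5.57% of the members past that floor, against 6.45% of the measured transcripts past it. In these 26 the CPM of the highest library was over 8 times that of the lowest, and in 12 of them over 32 times.

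**Figure D2:**
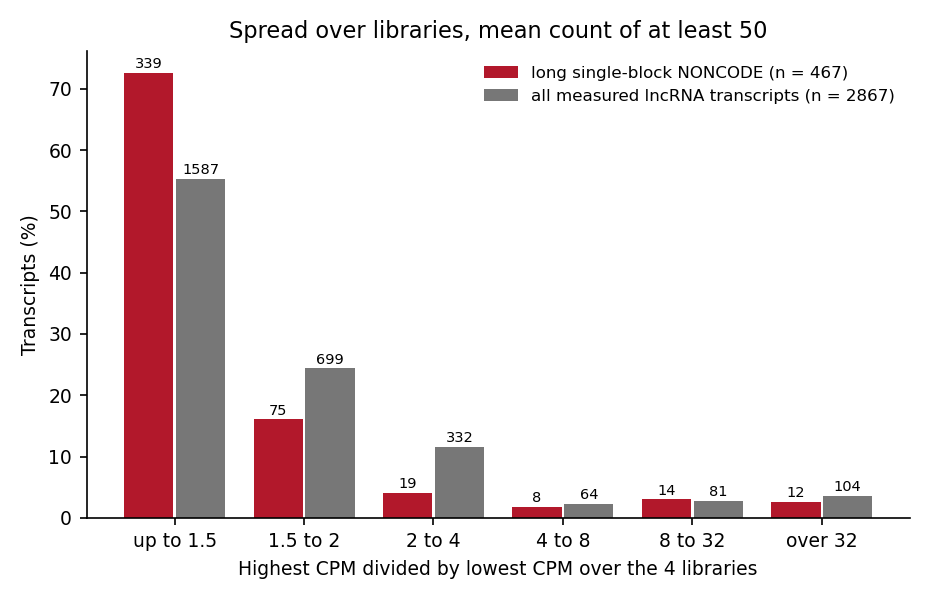
Share of transcripts (y axis, %) by the ratio of the highest to the lowest CPM over the 4 libraries (x axis), for members and for all measured transcripts whose counts averaged at least 50. Numbers over the bars are counts of transcripts. The first bar holds 339 of 467 members, and 26 members stand in the last 2 classes.

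The first comparison set high against normal glucose at the earlier time, 24 h. NONRATT023866.2 (chromosome 5, 165991076 to 165994517, 3442 nt) had 25 reads in normal and 1429 reads in high glucose, 0.611 and 26.5 FPKM, a 43.4-fold difference (95% counting interval 29.3 to 67.2). It was low in the 48 h libraries as well, with 7 and 6 reads, so that its reads came nearly all from 1 library. NONRATT009135.2 (chromosome 13, 111574581 to 111576875, 2295 nt) was nearly absent from normal glucose, with 1 read, and had 398 reads in high glucose. The members furthest in the other direction were NONRATT000490.2 (chromosome 1, 82230930 to 82234051, 3122 nt), with 13.2 FPKM in normal and 0.143 FPKM in high glucose, and NONRATT012802.2 (chromosome 17, 10485649 to 10488393, 2745 nt), with 10.8 and 0.256 FPKM. The latter was 42.3-fold lower in high glucose (23.3 to 85.5), and it stayed at 2 and 4 reads in the 48 h libraries. On the scale of log2 (CPM + 1), 14 members were at least 2-fold higher in high glucose at 24 h and 13 at least 2-fold lower. That is 2.85% and 2.64% of the members, beside 2.34% and 2.55% of all measured transcripts. The median log2 ratio was -0.03 over members and -0.04 over all measured transcripts, and 449 members (91.3%) lay within 1.5-fold, beside 89.2% of all measured transcripts. Which 2-fold share was larger depended on the added value. With CPM + 5, 12 and 10 members and 52 and 67 of the 7321 measured transcripts were past 2-fold, a larger share of the members. On log2 (FPKM + 1) they were 13 and 11 members and 214 and 230 of the 7321, a smaller share of the members. Taken either way, the 2-fold shares turned alike in each of the other ratios.

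After 48 h, NONRATT021040.2 (chromosome 4, 180132182 to 180135931, 3750 nt) stood at 20.1 FPKM in high glucose and 0.180 FPKM in normal glucose. At 24 h it had been at 0.681 and 0.247 FPKM, so that the 48 h high glucose library was the only one with more than 40 of its reads. NONRATT000490.2 was at 10.3 FPKM in high glucose, 456 reads, and had 1 read in normal glucose. NONRATT017367.2 (chromosome 20, 28002028 to 28004766, 2739 nt) was at 40.0 FPKM in normal and 0.128 FPKM in high glucose, 312-fold lower (133 to 961). Its 24 h levels were 44.5 FPKM in normal and 39.6 FPKM in high glucose, which leaves 1 of 4 libraries low. NONRATT019722.2 (chromosome 3, 127528410 to 127530493, 2084 nt) was at 40.6 FPKM in normal and 1.52 FPKM in high glucose, 26.7-fold lower (19.9 to 36.9). At least 2-fold higher in high glucose were 22 members (4.47%) and at least 2-fold lower 17 (3.46%), beside 2.85% and 4.32% of all measured transcripts. Among the members past 2-fold 56.4% were therefore higher, and 62.2% (23 higher, 14 lower) with TMM or median-of-ratios size factors. Among all measured transcripts past 2-fold 39.8% were higher, a share that came to 52.0% (263 higher, 243 lower) with TMM factors.

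With the recovered totals the bulk of the members sat slightly lower in high glucose at 48 h, but both the amount and the direction depended on the scaling. Their median log2 ratio was -0.18 with the recovered totals, beside -0.14 over all measured transcripts, and 355 of 492 members (72.2%) lay below 0, beside 63.6% of all measured transcripts. With TMM factors the median was 0.01 and 48.4% lay below 0, beside 49.9% of all measured transcripts, with size factors 0.01 and 49.0%, and with libraries brought to the same lncRNA sum -0.01 and 51.0%. With the recovered totals 235 members (47.8%) had their lowest CPM in the high glucose library at 48 h, beside 42.4% of all measured transcripts, and with TMM factors 121 members (24.6%) did, beside 31.0% of all measured transcripts. The members were thus above all measured transcripts by the first scaling and below them by the second. More members were past 2-fold in the ratios that use this library, 39 in that of glucose at 48 h and 35 in that of time in high glucose. The ratios without it had 27 (glucose, 24 h) and 26 (time, normal glucose). All measured transcripts showed the same order, with 7.17% and 6.91% past 2-fold against 4.89% and 4.67%.

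Glucose ratios at both times could be set side by side, since the 24 h and the 48 h ratio share no library. 5 members were at least 2-fold higher in high glucose at both times and 3 at least 2-fold lower at both, 1.02% and 0.610% of the members beside 0.382% and 0.546% of all measured transcripts. NONRATT007078.2 (chromosome 11, 71547851 to 71550895, 3045 nt) had normal glucose levels of 1.63 FPKM (24 h) and 1.44 FPKM (48 h) and high glucose levels of 33.1 and 25.2 FPKM. Both high glucose libraries stood far above both normal glucose libraries, by 20.3-fold (15.6 to 26.8) and 17.6-fold (13.7 to 22.9). For NONRATT009135.2 the normal glucose libraries held 1 and 2 reads and the high glucose ones 398 and 187 reads, with fold intervals of 53.9 to 11958 and 26.7 to 812. The other 3 that were higher at both times are named after their values were seen. NONRATT000812.2 (chromosome 1, 137312744 to 137315273, 2530 nt) was at 2.23 and 2.05 FPKM in normal and 31.1 and 13.2 FPKM in high glucose. NONRATT007560.2 (chromosome 12, 40953589 to 40955998, 2410 nt) was at 0.283 and 0.251 FPKM in normal and 6.83 and 12.3 FPKM in high glucose. NONRATT029757.2 (chromosome 9, 121873825 to 121875956, 2132 nt) was at 3.24 and 1.96 FPKM in normal and at 12.6 FPKM in high glucose at both times. In each of these 5 the 2 normal glucose libraries differed by less than 2-fold from each other, or rested on 1 and 2 reads, and none of the 5 overlapped another listed transcript.

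Lower in high glucose at both times were NONRATT019722.2, NONRATT004188.2 and NONRATT005775.2. NONRATT019722.2 was at 2.59 FPKM in normal glucose and 0.0307 FPKM, 1 read, in high glucose at 24 h, and at 40.6 and 1.52 FPKM at 48 h. Its level thus differed with time as well as with glucose, and its 48 h high glucose level was below its 24 h normal glucose level. NONRATT004188.2 (chromosome 10, 31237556 to 31240582, 3027 nt), an abundant member, stood at 28.2 FPKM in the normal and 4.16 FPKM in the high glucose library of 24 h, a 6.78-fold difference (5.81 to 7.93). At 48 h its values were 95.8 and 35.5 FPKM, a 2.70-fold difference (2.54 to 2.86). Here too both media were higher at 48 h. NONRATT005775.2 (chromosome 10, 67866932 to 67869199, 2268 nt), named after its values were seen, was at 12.6 and 0.451 FPKM at 24 h and at 1.81 and 0.589 FPKM at 48 h. With TMM or size factors it was under 2-fold at 48 h, which left 2 members lower at both times.

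**Figure D3:**
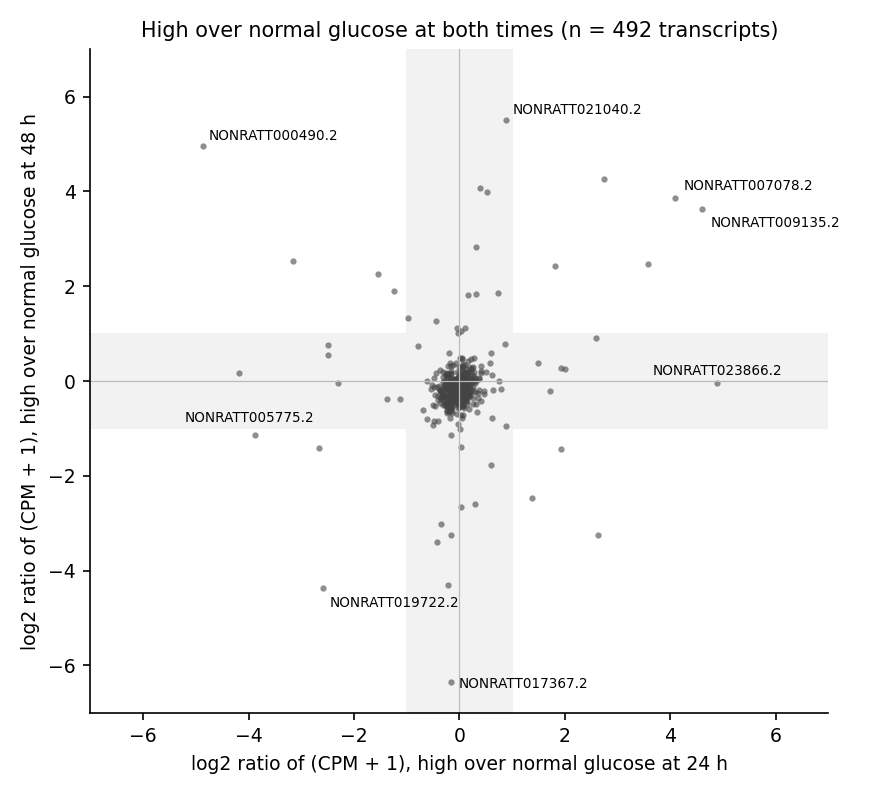
Log2 ratio of (CPM + 1) of high over normal glucose at 24 h (x axis) and at 48 h (y axis), 1 point for each of the 492 members, with ratios under 2-fold shaded. Most points sit in the centre, and the labelled members lie along the axes or in the corners, NONRATT007078.2 and NONRATT009135.2 high at both times and NONRATT000490.2 in opposite directions.

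Opposite directions were about as frequent as shared ones: 7 members (1.42%, beside 0.929% of all measured transcripts) were at least 2-fold apart one way at 24 h and the other way at 48 h. NONRATT000490.2 was the most extreme, going from 490 reads (normal) to 7 (high glucose) at 24 h, and from 1 (normal) to 456 (high glucose) at 48 h. It was thus high in 1 library of each medium and of each time. NONRATT028952.2 (chromosome 8, 115392590 to 115396246, 3657 nt), named after its values were seen, showed a like crossed arrangement. Its level was 6.40 FPKM in normal glucose at 24 h and 6.38 FPKM in high glucose at 48 h, against 0.472 FPKM in high glucose at 24 h and 0.884 FPKM in normal glucose at 48 h. NONRATT028353.2 (chromosome 8, 23275331 to 23278375, 3045 nt), also named afterwards, showed the reverse arrangement, with 4.76 FPKM in high glucose at 24 h and 5.17 FPKM in normal glucose at 48 h against 0.498 and 0.254 FPKM in the other two. Over all 492 members, which are not independent of each other and share their libraries, the glucose ratios at the 2 times had a Pearson's r of 0.146 and a Spearman's rho of 0.221, and 311 (63.2%) had the same sign. Over all measured transcripts r was 0.017 and rho 0.080, and 54.1% had the same sign.

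Over both times together, the quasi-likelihood test of edgeR, fitted with medium and time on all 7321 measured transcripts, called no member at a Benjamini-Hochberg adjusted p under 0.05. It called 0% of all measured transcripts higher and 0.0137% lower. Before adjustment, at p under 0.05, 9 members (1.83%) were higher and 16 (3.25%) lower, beside 1.73% and 3.02% of all measured transcripts. This balance turned with the scaling, to 16 higher and 8 lower with TMM or size factors and 14 and 8 with the same lncRNA sum. With TMM factors that was 3.25% and 1.63% of the members, beside 2.28% and 2.06% of all measured transcripts. Leaving out a library moved the balance too, over members and over all measured transcripts. Each such fit leaves a medium with a lone library, so its counts are not given. The smallest adjusted p among the members was that of NONRATT007078.2, 0.0642 by edgeR, with a fitted log2 change of 4.24 and higher levels in 2 of 2 pairs of libraries. Over the alternatives that kept all 4 libraries that value ran from 1.33e-31 to 0.369. For NONRATT009135.2 the edgeR adjusted p was 0.191 (5.68e-10 to 0.605 over the same alternatives). For NONRATT019722.2, with a fitted log2 change of -5.11, it was 0.238 (1.07e-10 to 0.893). The fitted change of NONRATT019722.2 was -1.75 without the normal glucose library at 48 h and -9.28 without the high glucose library at 48 h. NONRATT004188.2 had an edgeR adjusted p of 0.574 (0.0158 to 0.901 over the alternatives with all 4 libraries). DESeq2, and edgeR on all listed transcripts with no FPKM limit, each called the same 5 members higher, namely those at least 2-fold higher at both times, and 2 members lower, NONRATT004188.2 and NONRATT019722.2. Over all transcripts DESeq2 called 11 higher and 11 lower of 7321, and edgeR with no FPKM limit 21 and 24 of 17934. On log2 (FPKM + 1), limma called 0 members in either direction, and 0 of all measured transcripts. Since the times took the place of replicates, a member whose glucose ratio differed between times counted as spread in this test.

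The next comparisons asked how levels differed between 48 h and 24 h in the same medium. In normal glucose, NONRATT031003.2 (chromosome X, 77020429 to 77023113, 2685 nt, overlapping 1 other listed transcript) had 1 read at 24 h and 262 reads at 48 h, and NONRATT019722.2 had 64 and 1257 reads, 15.7-fold more as CPM (12.2 to 20.5). The lowest at 48 h were NONRATT000490.2, with 490 reads and 1 read, and NONRATT012802.2, with 353 and 2 reads, 221-fold lower (60.7 to 1830). At least 2-fold higher at 48 h were 13 members and at least 2-fold lower 13, each 2.64% of the members, beside 2.02% and 2.65% of all measured transcripts. The median log2 ratio was 0.06 over members and 0.01 over all measured transcripts.

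In high glucose, NONRATT031003.2 had 2 reads at 24 h and 358 reads at 48 h, and NONRATT000490.2 had 7 and 456 reads, 71.7-fold more as CPM (34.5 to 179). NONRATT017367.2 was 309-fold lower at 48 h (132 to 953), from 1700 reads to 5, and NONRATT023866.2 was 216-fold lower (99.2 to 591), from 1429 reads to 6. At least 2-fold higher at 48 h were 19 members (3.86%) and at least 2-fold lower 16 (3.25%), beside 2.57% and 4.34% of all measured transcripts. The median log2 ratio was -0.07 over members and -0.09 over all measured transcripts. It was 0.06 over members with TMM or size factors.

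Higher at 48 h in both media by at least 2-fold were 3 members (0.610%, beside 0.423% of all measured transcripts), and lower in both were 4 (0.813%, beside 0.601%). NONRATT031003.2 was at 0.0313 and 0.0476 FPKM in normal and high glucose at 24 h and at 6.57 and 9.37 FPKM at 48 h, so both 48 h libraries stood far above both 24 h libraries. NONRATT019722.2 and NONRATT004188.2 were the other two, and both also differed with glucose. The ranks for lower in both media were led by NONRATT015474.2 (chromosome 2, 189448002 to 189450111, 2110 nt, overlapping 5 other listed transcripts), at 2.19 and 2.00 FPKM at 24 h and 0.160 and 0.133 FPKM at 48 h. NONRATT002556.2 (chromosome 1, 92087216 to 92089537, 2322 nt) came next, at 7.36 and 7.54 FPKM at 24 h and 2.12 and 0.545 FPKM at 48 h. NONRATT023866.2 and NONRATT007251.2, named after their values were seen, completed the 4. A further 7 members (1.42%, beside 0.806% of all measured transcripts) differed with time in opposite directions in the 2 media, in ratios that rest on the same 4 values as those of glucose.

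**Figure D4:**
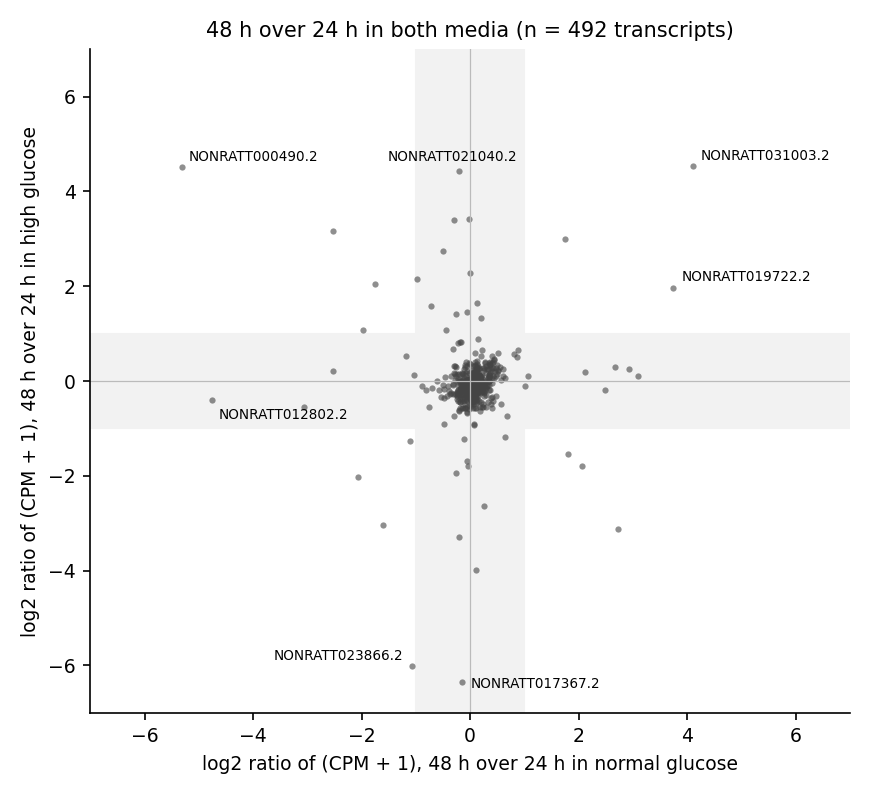
Log2 ratio of (CPM + 1) of 48 h over 24 h in normal glucose (x axis) and in high glucose (y axis), 1 point for each of the 492 members, with ratios under 2-fold shaded. NONRATT031003.2 is high in both media, while NONRATT017367.2 and NONRATT021040.2 lie near the vertical axis, past 2-fold in high glucose and under 2-fold in normal glucose.

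In the same edgeR fit no member passed the adjusted threshold for time, and no measured transcript did (0% in each direction). Without adjustment, at p under 0.05, 12 members (2.44%) were higher and 8 (1.63%) lower at 48 h, beside 1.6% and 2.65% of all measured transcripts. Leaving out a library moved these counts, over members and over all measured transcripts. Each such fit leaves a time with a lone library, so its counts are not given. NONRATT031003.2 had the smallest adjusted p among the members, 0.0549 by edgeR, with a fitted log2 change of 7.54 and higher levels in 2 of 2 pairs of libraries. Over the alternatives that kept all 4 libraries that value ran from 2.74e-11 to 0.235. It was under 0.05 with DESeq2, with edgeR on all listed transcripts and with edgeR without a term for medium, and over 0.05 with the others. NONRATT015474.2 had an edgeR adjusted p of 0.175 (0.00867 to 0.624 over the same alternatives) and NONRATT002556.2 one of 0.735 (0.0356 to 0.986). DESeq2 called 3 members higher with time (NONRATT004188.2, NONRATT019722.2 and NONRATT031003.2) and 2 lower (NONRATT002556.2 and NONRATT015474.2), and limma called 0. Over all 7321 measured transcripts DESeq2 called 14 higher and 21 lower, and limma 4 and 8. With the normal glucose library at 48 h left out, the later time was 1 library, so the spread came from the 2 libraries of 24 h. The lone library was assumed to vary like them, so the calls of that fit are not given.

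The 26 members whose libraries lay over 8 times apart, a limit chosen after the data were seen, divided by which libraries were high, a low library being one whose CPM was under the highest divided by 8. In 11 members 1 library alone was low, in 7 members 1 library alone was high, and in 8 members 2 libraries were high and 2 low. Of the 185 measured transcripts past the same limit, 99, 28 and 58 fell into these classes. The single low library was that of high glucose at 48 h in 5 members (41 of the 185 measured transcripts) and at 24 h in 4 (21 of the 185). It was that of normal glucose at 48 h in 1 (NONRATT025255.2, 22 of the 185) and at 24 h in 1 (NONRATT008811.2, 15 of the 185). These classes rest on the limit: NONRATT008811.2 and NONRATT028952.2 also held libraries between their extremes. NONRATT000935.2 (chromosome 1, 153595466 to 153598375, 2910 nt) is an example of the first kind, with 11.3, 9.68 and 12.2 FPKM in 3 libraries and 0.290 FPKM in high glucose at 48 h. NONRATT020675.2 (chromosome 4, 118792619 to 118795766, 3148 nt) was at 1.66, 1.67 and 1.61 FPKM and, in high glucose at 24 h, at 0.0812 FPKM. In both, the 3 high libraries lay close together and the low one far from them. Both were chosen after their values were seen.

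Of the 8 members that parted the libraries 2 against 2, 4 were high in both high glucose libraries (NONRATT000812.2, NONRATT007078.2, NONRATT007560.2 and NONRATT009135.2) and 1 in both normal glucose libraries (NONRATT005775.2). Of the 185 measured transcripts past the limit, 6 were high in both high glucose libraries and 6 in both normal glucose libraries. NONRATT031003.2 was high in both 48 h libraries, as were 12 of the 185, while 11 were high in both 24 h libraries, a class with no member. The crossed arrangements were held by NONRATT000490.2 (14 of the 185) and NONRATT028353.2 (9 of the 185). High in 1 library alone were 3 members in high glucose at 48 h (NONRATT021040.2, NONRATT014443.2 and NONRATT019651.2), 2 in normal glucose at 48 h (NONRATT019722.2 and NONRATT020278.2), NONRATT023866.2 in high glucose at 24 h and NONRATT012802.2 in normal glucose at 24 h. In the same order, 5, 13, 6 and 4 of the 185 measured transcripts were high there alone. No other listed transcript overlapped 24 of the 26. Their lowest library held between 1 and 197 reads, with a median of 10, so each was detected in all 4 libraries. Their median length was 2712 nt and their median level 4.31 FPKM. The other members past the floor of 50 reads had medians of 2541 nt and 8.77 FPKM. Over all members, 13 of 46 with a mean of 1 to 2 FPKM were past 2-fold in some ratio and 27 of 126 between 2 and 5 FPKM. From 5 to 10, 10 to 20 and 20 to 50 FPKM they were 8 of 117, 5 of 112 and 4 of 74, and at 50 FPKM or more 0 of 17. Depth rose along with level: the median of the mean counts was 48.9 in the lowest of these classes and 3279 in the highest. All measured transcripts were not divided in this way, so whether the gradient is particular to members was not tested. In all, 57 members (11.6%) were past 2-fold in at least 1 of the 4 ratios, beside 12.9% of all measured transcripts.

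**Figure D5:**
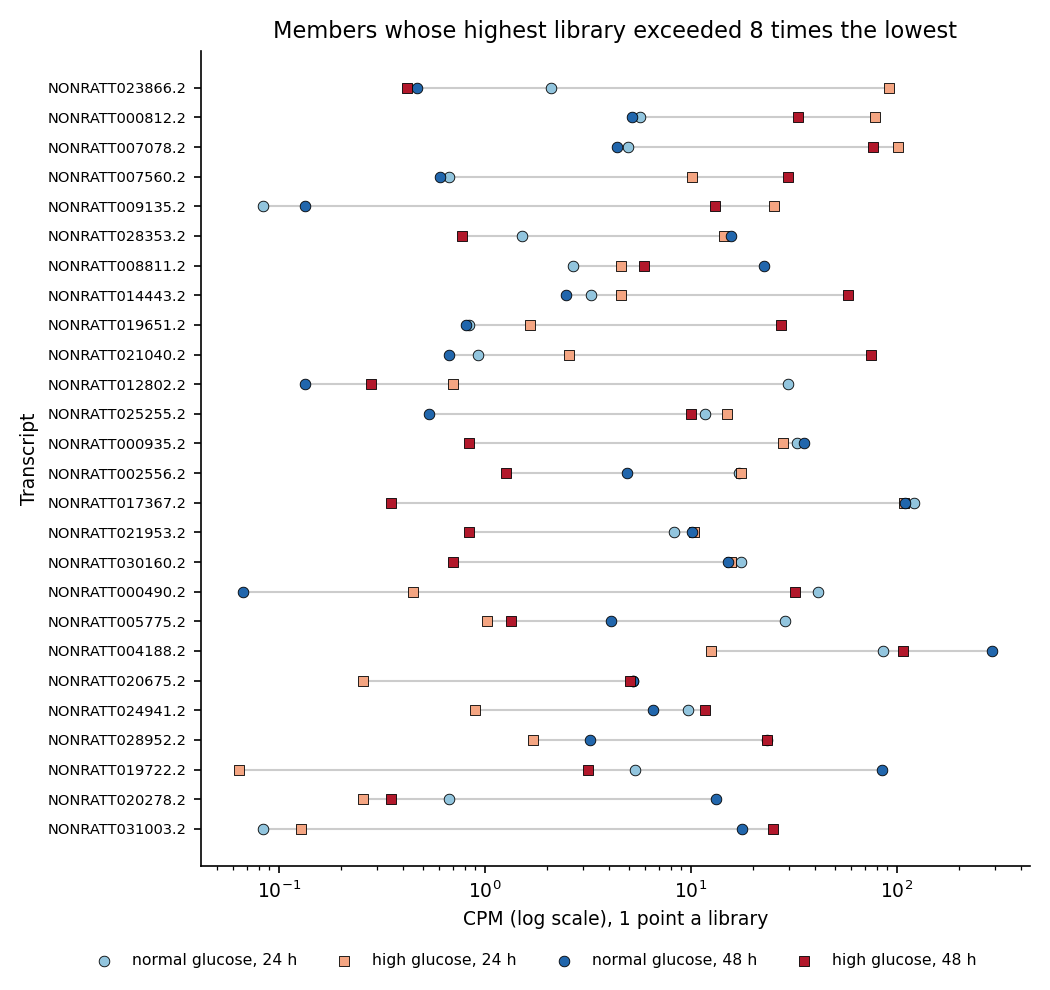
CPM (x axis, log scale) of the 26 members whose highest library exceeded 8 times the lowest, 1 row a transcript and 1 point a library, circles for normal and squares for high glucose, pale for 24 h and dark for 48 h. Points cluster at 2 separated levels in many rows, and the libraries at the high level differ from row to row.

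Neighbouring members gave a further view of the same blocks. Within 10 kb of each other lay 16 pairs of members, and no chain was longer than 2, so that 460 members stood alone. Of 7 pairs less than 1000 bases apart, 6 had mean levels within 1.5-fold of each other. An example is NONRATT006689.2 and NONRATT006688.2 on chromosome 11 (79192603 to 79196009 and 79196244 to 79198403), 234 bases apart, at means of 31.4 and 30.3 FPKM. Of 9 pairs further apart, 4 were within 1.5-fold, and the widest difference was 42.8-fold, between NONRATT024776.2 (2.22 FPKM) and NONRATT024777.2 (95.2 FPKM), 9887 bases apart on chromosome 6. In 14 pairs neither member passed 2-fold in any ratio, in 2 pairs 1 member did, and in no pair did both. Over all 492 members 57 (11.6%) passed it, so few pairs of any kind would hold such a member. Members further apart were not paired for comparison, so whether neighbours are alike in level or in shifts was not tested. NONRATT021025.2 belongs to 1 of these 2 pairs, with 3.25, 0.236, 0.525 and 0.952 FPKM in normal glucose at 24 h, high glucose at 24 h, normal glucose at 48 h and high glucose at 48 h, a highest CPM 13.8 times the lowest. Its partner NONRATT021024.2, 36 bases away, varied by 2.18 times. These pairs and examples were chosen after their values were seen.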

How the data were processed

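Total RNA of 4 groups, 1 strand-specific library each, was measured, with groups taken from the sample titles. The deposited tables hold a raw read count for each lncRNA transcript they list, per the file headers, and unlisted transcripts were set to 0. FPKM values were deposited beside the counts, per the file headers, as was the length of each transcript in the 24 h normal glucose table. The submitters' processing notes name TopHat2 2.1.0, Cufflinks and the rat builds rn6 and Rnor_6.0. The sources used here do not say which tool counted the reads or whether it used strand. Coordinates are 1-based positions as the tables give them. No genome of that build was used here, so no sequences are printed and no gene annotation is given.

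A library total was taken as the median over transcripts of the value that links count, length and FPKM, which 2 transcripts in each 24 h library missed by over 1%. CPM scale the counts by that total, so 1 read was worth 0.0639 to 0.0842 CPM. Ratios are differences of log2 (CPM + 1), with 2-fold as the limit. The added 1 understates differences of low transcripts. Folds are ratios of CPM with no pseudocount. edgeR 4.0.16 (estimateDisp, glmQLFit, glmQLFTest, totals as library sizes) was fitted on all 7321 measured transcripts with terms for medium and time, 1 residual degree of freedom and a common coefficient of variation of 0.367, after a test on simulated data. p-values were adjusted by Benjamini-Hochberg at 0.05. p-values weigh the difference between media against the disagreement of the times, or that between times against the disagreement of the media, since the labels name no replicate. limma 3.58.1 and DESeq2 1.42.0 were alternatives, as were other scalings, pseudocounts, filters and member rules. Reads carried no molecular identifiers, so PCR copies count as separate reads.

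The members, the rule for named transcripts and the tests were chosen with earlier results of these data known. The rule named the 5 most abundant members, the 2 highest and 2 lowest in each ratio and in both ratios of glucose or time, the 2 longest, the 2 steadiest, those at the limits, any member past the adjusted threshold, and the longest chain of neighbours.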

Additional observations from a re-analysis of the deposited data

Results flagged for a closer look

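In 8 members the glucose ratio, the log2 ratio of (CPM + 1) of high over normal glucose, or the time ratio was past 2-fold in opposite directions between the 2 times or the 2 media. With 1 library a group the difference was not tested. Its size, the glucose ratio at 48 h minus that at 24 h on the log2 scale, equals the time ratio in high glucose minus that in normal glucose. It was 9.82 for NONRATT000490.2, 5.69 for NONRATT028952.2, 3.80 for NONRATT029935.2, 3.13 for NONRATT007642.2 and 3.04 for NONRATT021025.2, all with a higher ratio at 48 h. It was -5.86 for NONRATT028353.2, -3.86 for NONRATT031184.2 and -3.35 for NONRATT030499.2, with a lower ratio at 48 h. The sizes depend on the pseudocount: with 5 in place of 1, an alternative chosen after seeing the data, the difference was 5.96 for NONRATT000490.2 and -1.53 for NONRATT031184.2.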

How the results depend on the processing

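Under the alternatives 162 recomputed counts and medians stayed within 1.5 times the reported count or within 0.1 of the reported median. The other 27 did not. Single-transcript ratios and fitted changes were recomputed only where a transcript was named as highest or lowest, and none of these changed sign. Ratios chosen for their size could hardly do so by rescaling. Small ones did, such as the fitted glucose change of NONRATT001117.2, which ran from -0.125 to 0.0914. Of the single-transcript ratios 16 moved by more than their counting interval allows, all with a pseudocount of 5 or the deposited FPKM, for example that of NONRATT000490.2 at 24 h from -4.87 to -3.09 with a pseudocount of 5. The member counts past 2-fold fell when 3000 nt was required, as they must with 113 members in place of 492. Taken either way, their share of the members did not fall. For glucose at 24 h 5 were higher and 7 lower, beside 14 and 13 of the 492, and at 48 h 6 and 3, beside 22 and 17. For time they were 3 and 4 in normal glucose, beside 13 and 13, and 6 and 4 in high glucose, beside 19 and 16. Whether longer members differ from the rest was not tested. Time in normal glucose gave 8 lower with a pseudocount of 5, and 20 with no FPKM limit (647 members). The median glucose ratio at 48 h was 0.012 with TMM factors, 0.0060 with size factors and -0.0094 with the same lncRNA sum. The median time ratio in high glucose was 0.057 with TMM factors and 0.058 with size factors. For these shifts the scaling is the only change. The edgeR count of 0 members became 5 higher and 2 lower for glucose both with DESeq2 and with no filter on low values, with 7321 and 17934 transcripts tested, of which DESeq2 gave 1704 no adjusted p. For time it became 3 higher and 2 lower with DESeq2, 3 and 1 with no filter, and 1 higher without a term for medium. Over all tested transcripts these settings called 14 and 21, 29 and 42, and 5 and 6 for time. Leaving out 1 library leaves 1 group of the comparison with a lone library assumed to vary like the others, so the calls of those fits are not given. The cause of the differing calls was not tested. The alternatives for the medians, for glucose counts at both times and for the 8-fold limit (34 members past 4 times, 22 with a mean count of at least 100, 26 with TMM factors) were chosen after seeing the data. Adding transcripts with recovered lengths added 0 members. The labels give no replicate numbers to block on, and the terms for time and medium set libraries of the same time or medium side by side. Folds against 1 to 3 reads are limited by depth, as their intervals show.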

Other observations

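The nearest other measured transcript was looked up for each of the 26 members whose highest CPM exceeded 8 times the lowest, a choice made after the data were seen. Within 10 kb, 11 of the 26 had such a neighbour. In 6 of these 11 the neighbour varied by less than 2-fold between its highest and lowest library, in 4 it varied by 2 to 8-fold, and in 1 by more. The 4 neighbours that varied by 2 to 8-fold had mean counts of only 8.5 to 17.5 reads, where counting error widens the ratio. For NONRATT028952.2 the neighbour NONRATT028951.2, 1407 bases away, varied by 1.67 times while the member varied by 13.6 times. For NONRATT020675.2 the neighbour NONRATT020677.2, 4457 bases away, had 201 and 288 reads (normal, then high glucose) at 24 h and 253 and 311 reads at 48 h, while the member had 62, 4, 78 and 72 reads. The member whose neighbour varied by over 8-fold was NONRATT030160.2 on chromosome 9 (81717626 to 81720006), which had 209, 245, 224 and 10 reads in that order. Its neighbour NONRATT030161.2, 289 bases away, had 71, 89, 78 and 3 reads, low in the same library.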
